A study of Mus musculus with 2 samples.

Results

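The killer cell lectin-like receptor (Klr) family was described across the immune cells of urethane-treated mouse lungs. Members were all genes whose symbol begins with Klra, Klrb, Klrc, Klrd, Klre, Klrg, Klrh, Klri or Klrk, which gave 31 of the 55401 genes in the count matrix. They comprised 14 Klra, 6 Klrb, 3 Klrc, 2 Klrg and 2 Klri genes, with Klrd1, Klre1, Klrh1 and Klrk1 as the lone genes of their groups. The study set Siah1a/2 KO mice against WT mice, with 1 sample of each. Siah1a and Siah2 are ubiquitin ligases. In both samples live CD45+ cells were sorted from digested lungs 7 weeks after a first dose of urethane, a lung carcinogen, so the carcinogen was shared by the KO and the WT sample. Libraries were made with a 10x 3′ kit. The mouse strain, the number of animals in each sample and the cells in which Siah1a/2 was lost are not given in the sources used here. Cell barcodes end in 1 or 2, here library 1 and library 2. No label ties an ending to a genotype, so comparisons of the libraries carry no genotype, and with 1 library of each kind there was no replicate check and no test.

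Klr receptors are C-type lectin-like proteins on natural killer (NK) cells and some T cells, and nearly all of their genes lie side by side in the NK gene complex. Mouse Ly49 receptors, encoded by Klra genes, mostly read classical MHC class I and are turned on in overlapping subsets of NK cells. CD94, encoded by Klrd1, pairs with NKG2 proteins encoded by Klrc genes, which read the non-classical molecule Qa-1. Inhibitory members signal through phosphatases, and activating members through the adaptors encoded by Tyrobp and Hcst.

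Library 1 held 8522 barcodes and library 2 held 6479, with a median of 8661 and 7875 unique molecular identifiers (UMIs) in the cells kept. Cells were sorted into types by UMIs of marker genes, with no Klr gene among them. NK cells were those with a UMI of Ncr1 and at most 1 UMI of the Cd3 genes, 988 cells in library 1 and 942 in library 2. T cells needed 2 Cd3 UMIs and were split into CD8 T (2171 and 1935 cells), gamma-delta T (101 and 80), CD4 T (156 and 138), regulatory T (406 and 220) and other T cells. Cells with markers of both lymphoid and myeloid types, 14.3% of library 1 and 10.49% of library 2, were set apart. No other doublet removal was done, and 11 barcode sequences occurred in both libraries. The NK label was checked against 6 other NK markers (Nkg7, Gzma, Prf1, Eomes, Fcgr3 and Cd7), which summed to 8009 and 9438 UMIs in every 1000000 in the NK gates of libraries 1 and 2, against 3652 and 4220.0 in the CD8 T gates. All but Nkg7 were higher in the NK gates. Gzma had 4166 and 5101, against 302 and 377 in the CD8 T gates, and Nkg7 had 2228 and 2578, against 2809.5 and 3309.7. The T cell receptor gene Trac had 19.2 and 20.8 in the NK gates, against 819 and 850.0 in the CD8 T gates. Over all 4 T check markers (Trac, Trbc2, Cd5 and Cd6) the sums were 385 and 409.5 in the NK gates, against 3241 and 3409 in the CD8 T gates. Levels below are CPM, the UMIs of a gene in every 1000000 UMIs of a gate. Because 1 UMI stands for 1 transcript end, they are not divided by gene length, and with summed counts fewer cells with a transcript and less transcript per cell cannot be told apart. Intervals are 95% and cover counting error only.

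All 31 members lie on chromosome 6 (GRCm38, GENCODE M21). From Klrb1a to Klra2 they span positions 128609227 to 131247362, and Klrg1 (122270596 to 122282882) and Klrg2 (38625693 to 38637242) lie apart. Of them, 28 had at least 50 UMIs in the kept cells. Klra10 had 21, the pseudogene Klra11-ps had 4 and the pseudogene Klrb1-ps1 had none. Klrg2 had 50, of which 58.0% lay in the cells set apart as mixed. Summed over all members, the NK gates held 6190.5 and 6217 CPM in libraries 1 and 2, the other T gates 4025 and 4087, the gamma-delta T gates 3307 and 4019, the CD8 T gates 3196 and 3410.5, the regulatory T gates 1308 and 1063, the phagocyte gates 521 and 566, and the B cell gates 115 and 71.3. B cells are not known to express these receptors and give the level of free RNA and stray reads, at a lower depth (median 3166.5 and 3119 UMIs per cell, against 10047 and 9050.5 in the NK gates, 7655 and 7009 in the CD8 T gates, 6424.5 and 5775.5 in the regulatory T gates and 9049 and 9259 in the phagocyte gates). Shares of cells were therefore also taken after thinning each cell to 3000 UMIs, which left out 25 and 25 NK, 70 and 44 CD8 T, 34 and 26 regulatory T, 70 and 31 phagocyte and 28 and 23 B cells.

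**Figure D1:**
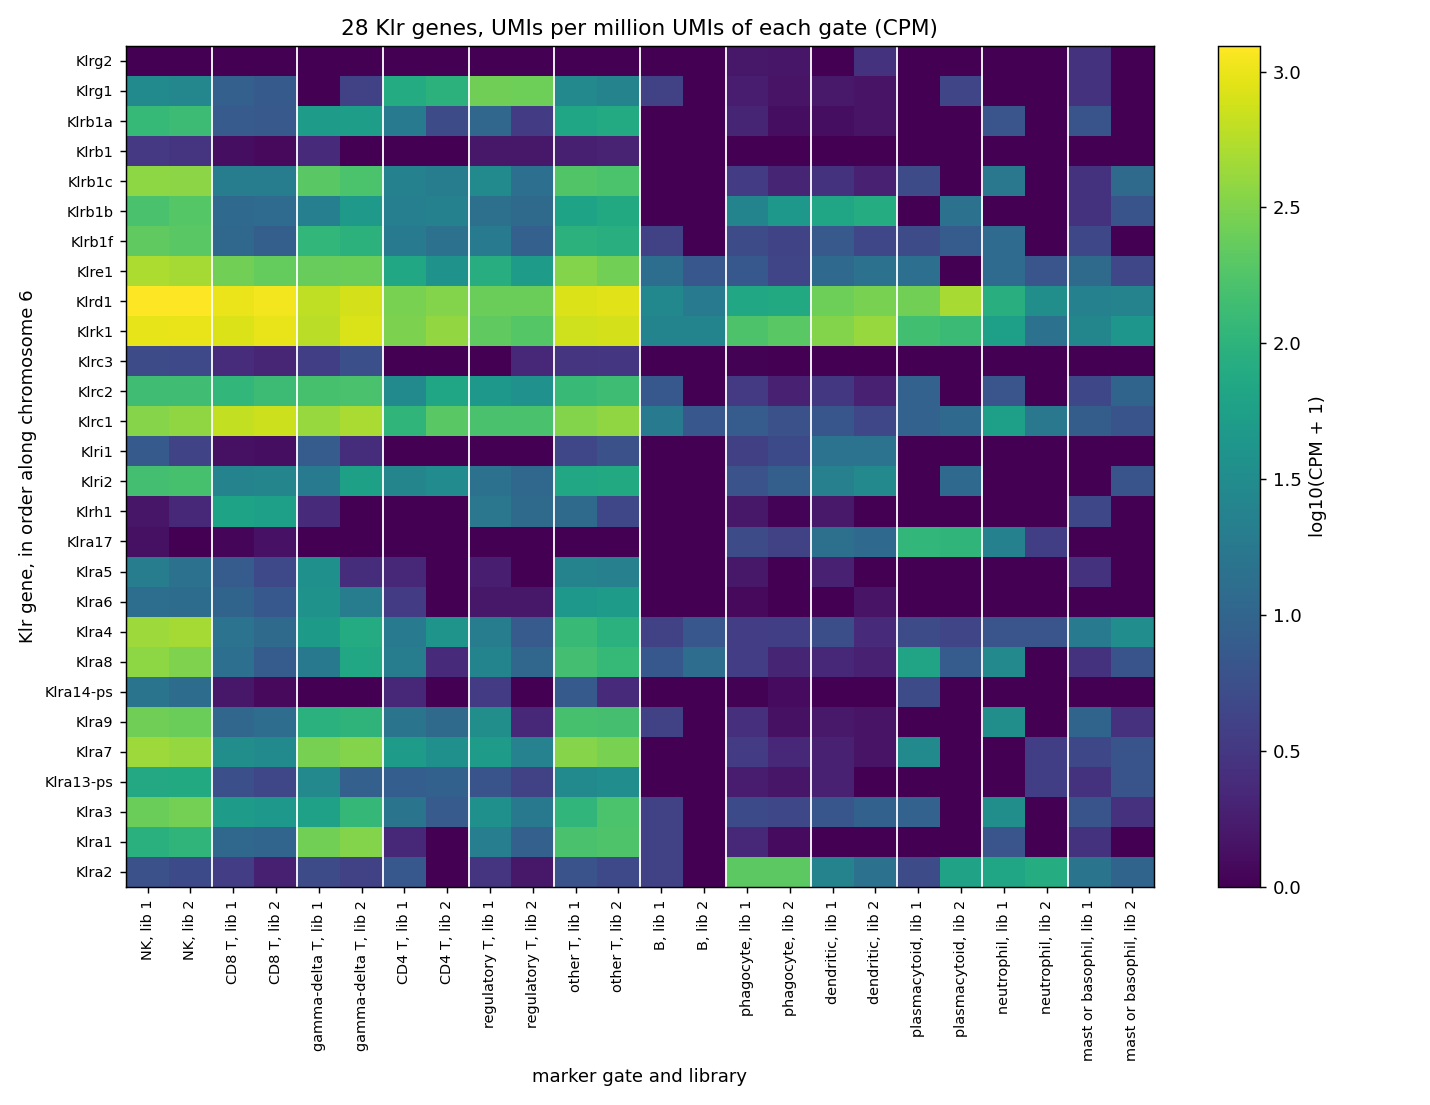
CPM, as log10 of the value plus 1, of the 28 Klr genes with at least 50 UMIs (rows, in order along chromosome 6) in each marker gate of library 1 and library 2 (columns). Klrd1 and Klrk1 are bright in all NK and T gates and visible in the dendritic gates, Klra2 in the phagocyte gates, Klra17 in the plasmacytoid gates and Klrg1 in the regulatory T gates.

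The transcripts of the NK gates were led by the 2 receptors that nearly every NK-gated cell held. Klrd1, which encodes CD94, had 1220.1 (interval 1199 to 1241) CPM in library 1 and 1242 (1220 to 1264) in library 2. Klrk1, which encodes the activating receptor NKG2D, had 946 and 979.7. A UMI of Klrd1 was found in 97.8% and 98.2% of NK-gated cells, and of Klrk1 in 98.9% and 99.6%. After every cell was thinned to 3000 UMIs, Klrd1 was still found in 93.0% and 94.3% of NK-gated cells, against 12.5% and 10.0% of B-gated cells (64 and 30 cells were deep enough).

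Among the partners of CD94, Klrc1 (the inhibitory NKG2A) had 341 and 376 CPM in the NK gates and Klrc2 (the activating NKG2C) had 138 and 140.3. Klrc3, which encodes NKG2E, had 4.08 and 3.85. Klre1, which pairs with the products of Klri1 and Klri2, had 523 and 472, Klri2 had 148 and 157, and Klri1 had 6.48 and 3.33. The levels of Klrc1 and Klrc2 may be affected by shared sequence, because 21.5% of the 91-base windows in the last 500 bases of Klrc1 transcripts occur in Klrc2 as well.

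The Klrb1 group, to which the NK1.1 antigen belongs, was led by Klrb1c (NK1.1) with 368 and 356 CPM in the NK gates. Klrb1f followed with 215 and 199, the inhibitory Klrb1b with 159.9 and 191 and Klrb1a with 118 and 132. Klrb1 itself had 2.22 and 1.97. A predicted gene, Gm44511, overlaps Klrb1c and Klrb1b on the same strand and shares 10.2% and 13.8% of their end windows, and Klrb1a shares 1.1% of those of Klrb1c, so the counts of the 4 may be affected.

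Klra4, Klra8, Klra7, Klra9, Klra3 and Klra1 showed another pattern than Klrb1a, Klrb1b, Klrb1c and Klrb1f: fewer NK-gated cells, with a higher median of UMIs in each. The pattern did not hold against Klrd1 and Klrk1, whose medians were 12 and 11, and 10 and 9 UMIs. The activating receptor genes Klra4 (Ly49D) and Klra8 (Ly49H) had 441 and 470.1, and 372 and 313 CPM. The inhibitory receptor genes Klra7 (Ly49G), Klra9 (Ly49I), Klra3 (Ly49C) and Klra1 (Ly49A) had 431 and 401, 263 and 250.4, 251 and 282, and 90.2 and 104 in libraries 1 and 2. Klra4 was found in 45.6% and 44.9% of NK-gated cells with a median of 9 UMIs in those cells of either library, and Klra1 in 12.3% and 13.1% of cells with a median of 7 and 6. By contrast, Klrb1f was found in 79.8% and 75.8% of NK-gated cells with a median of 2 UMIs. The other Klra genes were low in the NK gates: Klra13-ps had 73.2 and 74.5, Klra5 19.6 and 13.3, Klra14-ps 14.7 and 11.4, Klra6 12.0 and 11.4, and Klra2 4.82 and 3.95 CPM.

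Set against CD8 T cells, most Klra and Klrb1 genes were higher in NK cells, while Klrd1 and Klrk1 did not separate the 2 types by much. At a ratio of at least 2, with at least 50 UMIs in the sum of both gates, 17 of 25 members were higher in the NK gate in library 1, against 5.17% of all genes tested, and 18 of 24 in library 2, against 5.27%. Klrh1 alone was lower past that ratio in each library, against 6.45% and 6.69% of all genes. The median log2 ratio over the members was 2.67 and 2.66, against -0.09 and -0.07 over all genes. In each library 3 of the members counted as higher met the minimum of 50 UMIs only with the NK UMIs, so their calls rest on the NK gate. They were Klrc3, Klri1 and Klra14-ps in library 1, and Klrc3, Klra14-ps and Klra2 in library 2. In both libraries the same 16 members were higher past the ratio. They were Klra1, Klra3, Klra4, Klra5, Klra7, Klra8, Klra9, Klra13-ps, Klra14-ps, the 4 genes Klrb1a, Klrb1b, Klrb1c and Klrb1f, and Klrc3, Klrg1 and Klri2.

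Klra4 had 441 and 470.1 CPM in the NK gates, against 14.0 and 10.7 in the CD8 T gates, log2 ratios of 4.97 (interval 4.80 to 5.15) and 5.45 (5.24 to 5.69). In CD8 T cells without an Ncr1 UMI, an alternative chosen after the values were seen, Klra4 had 3.86 and 1.26, and the B gates, with 1 UMI in each library, had 3.01 and 5.94. Klrb1c had 368 and 356 in the NK gates, against 18.8 and 19.3 in the CD8 T gates, log2 ratios of 4.29 and 4.20, and without the T cells that held Ncr1 these were 5.73 and 5.21. Klrd1 had 1220.1 and 1242 in the NK gates, against 1016 and 1097 in the CD8 T gates, log2 ratios of 0.26 and 0.18. Klrk1 had 946 and 979.7 in the NK gates, against 858 and 973 in the CD8 T gates, with log2 ratios of 0.14 (0.11 to 0.18) and 0.01 (-0.03 to 0.05).

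**Figure D2:**
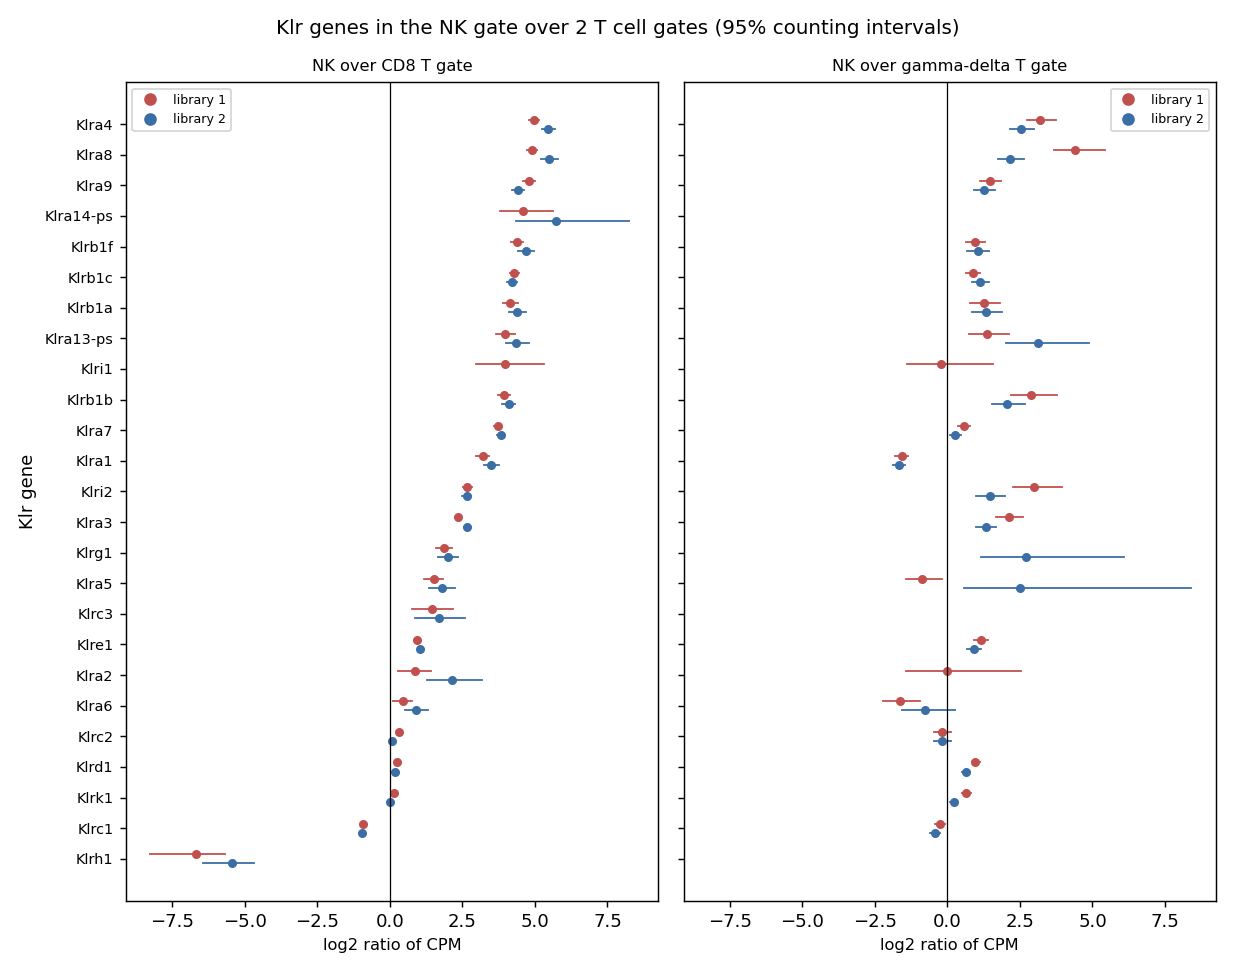
Log2 ratio of CPM in the NK gate over the CD8 T gate (left) and over the gamma-delta T gate (right), for each Klr gene with UMIs in both gates, in library 1 (red) and library 2 (blue). Points are ratios and bars 95% counting intervals. Klra4 lies at 4.97 and 5.45 over CD8 T cells, Klrc1 at -0.92 and -0.94 and Klrh1 at -6.68 and -5.42, and Klra1 lies below 0 over gamma-delta T cells.

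CD8 T cells held more of the inhibitory NKG2A transcript than NK cells did. Klrc1 had 341 and 376 CPM in the NK gates, against 646 and 722 in the CD8 T gates, log2 ratios of -0.92 (-0.98 to -0.87) and -0.94 (-0.997 to -0.889). At 3000 UMIs per cell it was found in 49.7% and 51.9% of NK-gated cells, against 78.7% and 81.6% of CD8-gated cells and 4.69% and 0 of B-gated cells (0 of 30 B-gated cells in library 2). Unthinned, the shares were 67.3% and 65.8% of NK-gated cells, against 90.8% and 91.8% of CD8-gated cells and 6.52% and 1.89% of B-gated cells. Without the T cells that held Ncr1, its level in CD8 T cells was 665 and 733.

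Klrh1 had 0.56 and 1.25 CPM in the NK gates, against 61.8 and 55.5 in the CD8 T gates, log2 ratios of -6.68 and -5.42. Those UMIs came from few cells with many UMIs each: 161 of 2171 CD8 T cells in library 1 and 116 of 1935 in library 2, with a median of 7 UMIs in the cells that held it. The highest cells held 42 and 27 UMIs, and 127 and 95 cells held at least 3. No UMI of Klrh1 was found in B-gated cells of either library.

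Within CD8 T cells, the CD94 and NKG2A transcripts and Klrh1 were higher in cells with both Pdcd1 (PD-1) and Havcr2 (TIM-3) UMIs, while several Klra genes were higher in cells without Pdcd1. The Pdcd1+ Havcr2+ sub-gate held 797 and 682 cells, against 673 and 653 in the Pdcd1- sub-gate. Klrh1 had 94.3 and 75.3 CPM in the Pdcd1+ Havcr2+ cells, against 7.44 and 22.1 in the Pdcd1- cells, log2 ratios of 3.64 (3.18 to 4.19) and 1.76 (1.45 to 2.09). It was found in 13.6% and 9.38% of Pdcd1+ Havcr2+ cells, against 1.19% and 1.84% of Pdcd1- cells, with median depths of 9703 and 8258 UMIs, against 6078 and 6145. Klrd1 had 1102 and 1223, against 743 and 824.5, a log2 ratio of 0.57 in each library. Klrc1 had 703 and 769.8, against 498 and 600.0, log2 ratios of 0.50 and 0.36. Klre1 was higher by log2 ratios of 0.92 and 0.66.

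Klra7 ran the other way, with 8.82 and 7.57 CPM in the Pdcd1+ Havcr2+ cells, against 86.1 and 68.8 in the Pdcd1- cells, log2 ratios of -3.28 (-3.65 to -2.94) and -3.17 (-3.63 to -2.76). Klra1 had log2 ratios of -3.25 and -3.74, Klra6 of -2.87 and -5.76, and Klra9 of -1.32 and -1.88. In library 1, 11 of 21 members were lower past a ratio of 2, against 3.99% of all genes, and 1 was higher, against 4.80%. In library 2, 4 of 19 were lower, against 2.88%, and 1 was higher, against 3.95%. The minimum of 50 UMIs was asked of both sub-gates summed, so a member low in Pdcd1+ Havcr2+ cells could meet it with its Pdcd1- UMIs. How many did so was not counted, so these counts are no support for a difference. The medians over the members were -1.32 and -0.26, against 0.02 and 0.02 over all genes. Without T cells that held Ncr1 the ratios of Klra7 were -3.53 and -3.27, those of Klra9 were -1.75 and -3.34, and those of Klrh1 were 3.48 and 1.72.

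Not every Klra gene followed. Klra3, the gene of Ly49C, had 52.4 and 52.1 CPM in Pdcd1+ Havcr2+ cells, against 48.7 and 26.4 in Pdcd1- cells, with log2 ratios of 0.10 (-0.12 to 0.34) and 0.98 (0.68 to 1.30). Without T cells that held Ncr1 its ratios were 1.10 (0.79 to 1.45) and 0.91 (0.59 to 1.25). Klra8 had log2 ratios of -2.59 (-3.12 to -2.11) in library 1 and 0.38 (-0.29 to 1.11) in library 2, a difference that was not tested, and without T cells that held Ncr1 it had under 50 UMIs in these cells of each library. Its UMIs in CD8 T cells were concentrated, 10 cells holding 54.3% of 254 UMIs in library 1 and 72.3% of 112 in library 2. Cells with Pdcd1 but no Havcr2, set against the same Pdcd1- cells, also held more Klrh1 (54.2 and 57.5, against 7.44 and 22.1) and less Klra7 (28.3 and 21.1, against 86.1 and 68.8), whose log2 ratios without T cells that held Ncr1 were -2.50 and -1.05. Past a ratio of 2, 8 of 21 and 5 of 19 members were lower there, against 1.74% and 0.924% of all genes, and 1 was higher in each, against 2.12% and 1.85%. These counts are under the same limit of a minimum asked of summed UMIs.

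**Figure D3:**
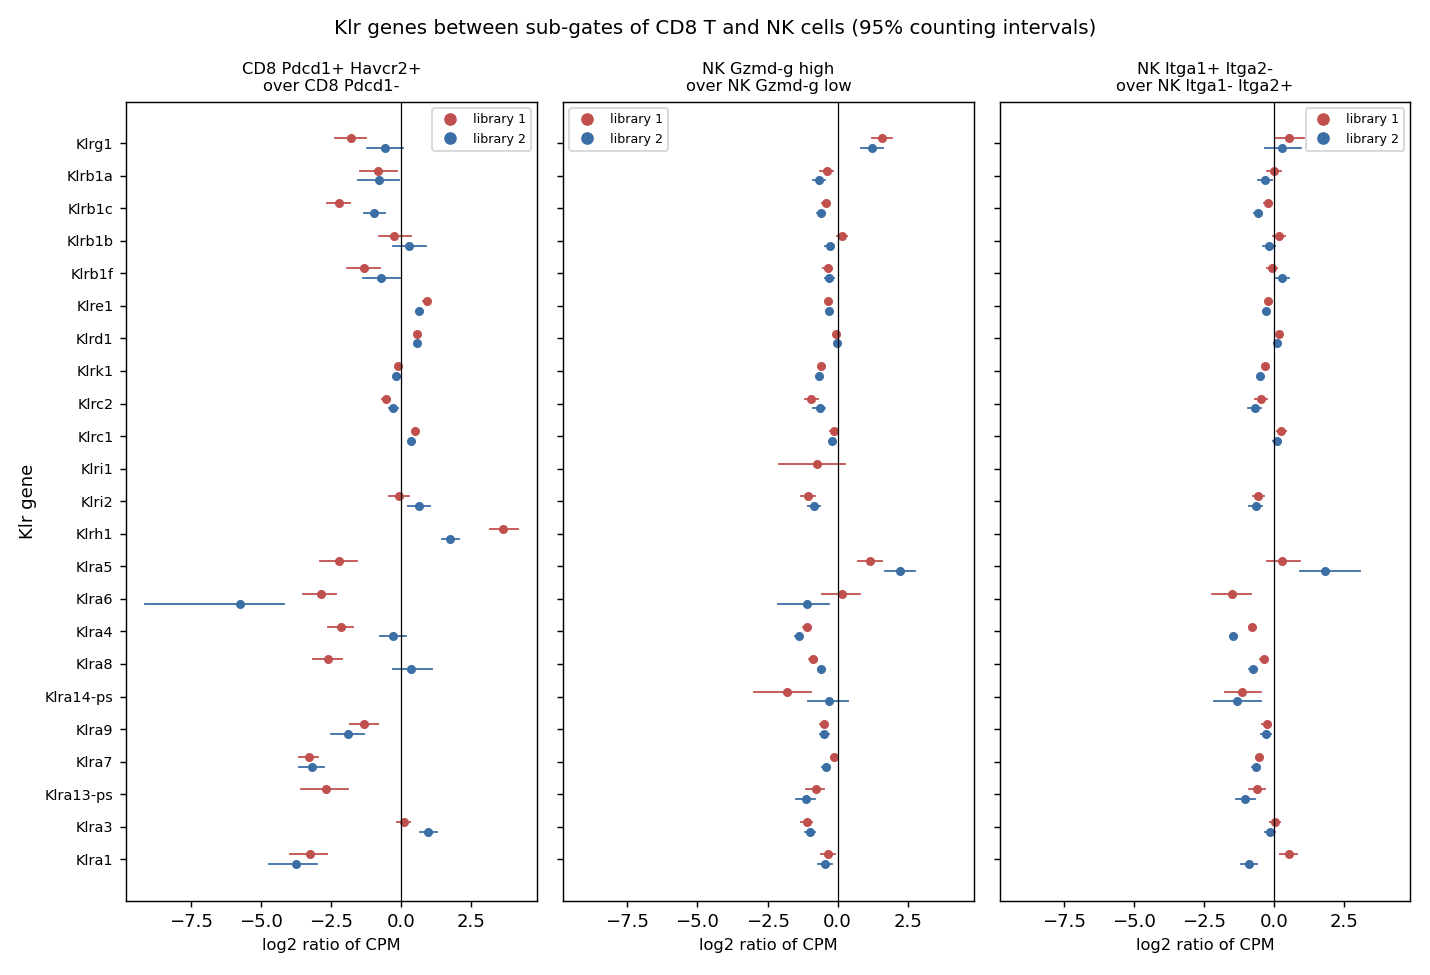
Log2 ratio of CPM between sub-gates, for Klr genes with UMIs in both, in library 1 (red) and library 2 (blue), with 95% counting intervals: CD8 T cells with Pdcd1 and Havcr2 over those without Pdcd1 (left), NK cells high over low in Gzmd to Gzmg (middle) and NK cells with Itga1 over those with Itga2 (right). Klrh1 lies at 3.64 and 1.76 and Klra7 at -3.28 and -3.17 on the left, and Klrg1 at 1.58 and 1.24 in the middle.

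In the gamma-delta T gates, which included cells with Ncr1, Klra1 was above the NK level and Klra7 within a ratio of 2 of it, while in the cells without Ncr1 Klra7 was lower and Klra1 stayed above in library 2 but not in library 1. Past a ratio of 2, 11 of 23 members were higher in the NK gate in library 1, against 5.73% of all genes, and 13 of 21 in library 2, against 4.76%, with medians of 0.97 and 1.27 over the members, against -0.07 and -0.10 over all genes. Of those higher, 9 in library 1 and 8 in library 2 had under 50 UMIs in the gamma-delta gate and met the minimum only with the NK UMIs, so the counts are no support for a difference. These ratios use the same NK cells as those over CD8 T cells. Klrg1 had no UMI in the gamma-delta gate of library 1, and Klra14-ps had none in either library. Set against a floor of 3 UMIs in that gate, the NK level was 6.74-fold higher for Klrg1, and 3.52-fold and 2.44-fold higher for Klra14-ps. These values leave out the counting error of the NK gate. The counting intervals of the log2 ratios began at 2.446 for Klrg1, and at 1.499 and 0.963 for Klra14-ps in libraries 1 and 2. The last of these lies below the ratio of 2. Lower in the NK gate past that ratio were 2 members in library 1 and 1 in library 2, against 5.24% and 5.52% of all genes: Klra1 in both libraries and Klra6 in library 1.

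Klra1 had 90.2 and 104 CPM in the NK gates, against 268 and 329.9 in the gamma-delta gates, log2 ratios of -1.57 (-1.80 to -1.34) and -1.66 (-1.88 to -1.44). Only 25 of 101 and 23 of 80 gamma-delta cells held it, and 10 cells held 72.4% and 71.1% of its UMIs. Klra7 had 431 and 401 in the NK gates, against 290.5 and 329.9 in the gamma-delta gates. In the 67 and 52 gamma-delta cells with no Ncr1 UMI, Klra1 had 94.4 and 193, log2 ratios of -0.08 (-0.54 to 0.46) and -0.90 (-1.25 to -0.50). Klra7 had 76.0 and 85.9, log2 ratios of 2.48 and 2.20, past the ratio of 2. Against those cells 17 of 23 members in library 1 and 16 of 21 in library 2 were higher in the NK gate past the ratio of 2, against 10.4% and 8.87% of all genes, under the same limit, and none was lower, against 9.91% and 9.14%.

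Klrg1, an inhibitory receptor that binds cadherins and marks long-activated lymphocytes, was higher in the regulatory T gates than in any other gate of either library. It had 265 and 256 CPM in the regulatory T gates, against 79.3 and 97.3 in the CD4 T gates, 28.2 and 25.8 in the NK gates and 7.77 and 6.43 in the CD8 T gates. The counting intervals of the regulatory T and CD4 T gates did not overlap in either library (248 to 282 against 61.2 to 101, and 232 to 281 against 76.1 to 123). At 3000 UMIs per cell, 40.1% and 43.3% of regulatory T cells held it, against 6.96% and 5.998% of NK cells and 0 of 64 and 0 of 30 B cells. Unthinned, the shares were 56.9% and 55.5%, against 14.98% and 13.6% of NK cells and 1.09% and 0 of B cells. The regulatory T gate asked only for a Foxp3 UMI and also took in cells with Cd8 UMIs. In the 228 and 145 Foxp3-holding T cells with neither Cd8 nor Ncr1 UMIs, Klrg1 had 303 and 315 CPM, while Klrd1 had 34.4 and 17.8 and Klrk1 had 37.7 and 14.5, against 251 and 247 for Klrd1 and 217 and 189 for Klrk1 in the whole gate.

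Klra2 and Klra17 were higher in myeloid gates than in the NK gates. Klra2, which encodes Ly49B, had 206 and 205 CPM in the phagocyte gates, 66.1 and 82.2 in the neutrophil gates and 23.2 and 13.1 in the dendritic gates, against 4.82 and 3.95 in the NK gates. At 3000 UMIs per cell it was found in 42.5% and 44.9% of phagocytes, against 1.04% and 1.2% of NK cells and 1.56% and 0 of B cells. Unthinned, the shares were 69.3% and 73.0%, against 4.76% and 2.97% of NK cells and 1.09% and 0 of B cells. Phagocytes with at least 10 UMIs of the C1q genes held 202 and 193 CPM, and those with at most 1 held 243 and 249.96, sub-gates chosen after the values were seen. In the CD8 T gates Klra2 had 2.66 and 0.87 CPM, and the 7 phagocyte markers summed to 134 and 64.6 there. The part of stray phagocyte RNA in that value was not tested.

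Klra17, which encodes Ly49Q, had 112 and 104 CPM in the plasmacytoid dendritic gates, 12.8 and 10.4 in the dendritic gates and 4.24 and 3.02 in the phagocyte gates, against 0.37 and 0 in the NK gates (0 UMIs in library 2, which allows up to 0.312). It was found in 14 of 24 and 13 of 27 plasmacytoid cells. The 2 antisense genes Gm44248 and Gm17631 overlap Klra17.

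The windows around the starts of 3 Klra genes are shown because the genes are relatives whose UMIs lay in different cells: Klra4 in NK cells, Klra17 in plasmacytoid cells and Klra2 in phagocytes. Each is 300 bases of the RefSeq table on GRCm38.p6, from 250 bases before to 50 after the start, on the minus strand of chromosome 6, 5′ to 3′. Capitals mark GAGGAA, a core that ETS factors such as PU.1 can bind, or TTCCTC, the same letters on the other strand. The windows are at chr6:130067222-130067521 (Klra4), chr6:129876623-129876922 (Klra17) and chr6:131247313-131247612 (Klra2).
Klra4: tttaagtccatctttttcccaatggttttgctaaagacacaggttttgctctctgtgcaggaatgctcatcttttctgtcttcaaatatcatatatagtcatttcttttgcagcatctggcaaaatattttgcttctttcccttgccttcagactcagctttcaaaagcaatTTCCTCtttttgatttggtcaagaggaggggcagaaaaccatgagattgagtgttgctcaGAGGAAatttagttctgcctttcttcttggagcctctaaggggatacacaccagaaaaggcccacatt
Klra17: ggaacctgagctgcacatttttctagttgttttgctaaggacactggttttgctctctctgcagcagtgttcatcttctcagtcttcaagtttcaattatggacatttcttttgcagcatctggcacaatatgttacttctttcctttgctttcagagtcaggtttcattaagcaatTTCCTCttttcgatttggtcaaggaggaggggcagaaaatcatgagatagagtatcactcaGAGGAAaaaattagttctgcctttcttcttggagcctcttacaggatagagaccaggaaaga
Klra2: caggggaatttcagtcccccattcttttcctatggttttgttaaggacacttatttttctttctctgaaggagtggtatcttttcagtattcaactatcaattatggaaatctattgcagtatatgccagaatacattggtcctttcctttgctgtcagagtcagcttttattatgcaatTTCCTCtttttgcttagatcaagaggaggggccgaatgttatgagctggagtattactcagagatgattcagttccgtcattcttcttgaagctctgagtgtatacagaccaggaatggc

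Klra4 and Klra17 held 2 matches each and Klra2 held 1. Aligned over their length, Klra4 and Klra17 were 79.3% identical, Klra17 and Klra2 74.6% and Klra4 and Klra2 71.4%, while Klra4 and Klra8, both high in NK cells, were 86.0% identical and Klra4 and Klra7 45%. The motif occurred in 18 of 29 windows of the members (62.1%), against 28.3% of all 32851 windows. A Runx core, TGTGGT or ACCACA, occurred in 31.0% of the members' windows, against 16.8% of all, and a T-box site, TCACAC or GTGTGA, in 13.8%, against 14.5%, and neither was in the 3 windows shown. The 3 genes and 3 motifs were chosen after the levels were seen, the members' windows are related by descent, and a match is a description of letters, not of binding.

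Klrk1 was also found in myeloid cells. Klrk1 had 169.5 and 202 CPM in the phagocyte gates and 329 and 415 in the dendritic gates, against 946 and 979.7 in the NK gates. That is 17.9% and 20.7% of its NK level in phagocytes and 34.8% and 42.3% in dendritic cells. Of the 6 NK check markers, Nkg7, Gzma, Prf1 and Eomes had at most 2.27% of their NK level in the phagocyte gates and at most 1.70% in the dendritic gates. Cd7 had 12.9% and 16.2% in phagocytes and 74.5% and 81.9% in dendritic cells, and Fcgr3 was above its NK level in both. B-gated cells held 24.1 and 23.8 CPM of Klrk1. All 6 summed to 647 and 697 CPM in the phagocyte gates and 226 and 226 in the dendritic gates, against 8009 and 9438 in the NK gates. Fcgr3, a gene that phagocytes are known to express, made up 531 and 630 of the phagocyte sums.

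Klrd1 had 68.1 and 74.9 CPM in the phagocyte gates, 257.5 and 297 in the dendritic gates and 270.2 and 488 in the plasmacytoid gates, against 1220.1 and 1242 in the NK gates. Among dendritic cells, those with Cd209a UMIs held 472.5 and 509, while those with Xcr1 or Clec9a held 50.3 and 67.2 and those high in Fscn1 held 70.2 and 86.7. These sub-gates were chosen after the values were seen and held between 23 and 84 cells. The dendritic and phagocyte gates had 244 cells in common. In dendritic cells outside the phagocyte gate Klrd1 had 79.9 and 91.1 and Klra2 had 2.92 and 0. In phagocytes outside the dendritic gate Klrd1 had 34.4 and 33.3, against 27.1 and 17.8 in B-gated cells. Klrb1b, an inhibitory receptor for the protein encoded by Clec2d, had 23.9 and 43.8 in the phagocyte gates and 66.6 and 81.6 in the dendritic gates, against 159.9 and 191 in the NK gates. In dendritic cells outside the phagocyte gate Klrb1b had 59.4 and 11.2, the latter from 9 UMIs. In phagocytes outside the dendritic gate Klrb1b had 18.2 and 34.2.

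Single NK cells held different numbers of Klra genes. Over the 6 Klra genes with at least 500 NK UMIs that are not pseudogenes, and with each cell thinned to 3000 UMIs, an NK-gated cell held a mean of 1.95 ± 1.35 genes in library 1 (SD over 963 cells) and 1.91 ± 1.33 in library 2 (917 cells). None of the 6 was found in 19.4% (17.0 to 22.1) and 18.5% (16.1 to 21.2) of the cells, and 3 or more in 37.6% and 34.1%. Without thinning the means were 2.31 and 2.26 and the shares with none 15.1% and 15.4%.

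NK-gated cells in which Klrc1 (NKG2A) was found after thinning held fewer of the 6 Klra genes, and the amount of Klra transcript was not compared. Klrc1 was found in 479 and 476 thinned cells, against 665 and 620 unthinned. The cells without a Klrc1 UMI therefore included some that held Klrc1 before thinning. In cells with a Klrc1 UMI the mean number of Klra genes was 1.48 and 1.39, against 2.41 and 2.47 in cells without one. At least 1 of the 6 was found in 69.5% (65.2 to 73.6) and 69.7% (65.4 to 73.8) of cells with a Klrc1 UMI, against 91.5% (88.7 to 93.9) and 94.1% (91.5 to 96.1) of cells without. Cells with neither Klrc1 nor any of the 6 Klra genes made up 4.26% and 2.84% of the NK-gated cells.

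Pairs within a cell were described by the share of cells holding both, divided by the product of the 2 shares, a value with no test, and cells of 1 library are not replicates. Klrc1 with Klra4 gave 0.60 and 0.61, and with Klra8 0.68 and 0.62. With Klra1 it gave 0.70 and 0.77, with Klra7 0.82 and 0.75, with Klra3 0.91 and 0.83 and with Klra9 0.87 and 0.87. All 6 were thus below 1 in both libraries. This was not particular to Klrc1, because Klrb1b was also below 1 with each of the 6 in both libraries. It gave 0.53 and 0.81 with Klra1, and 0.97 and 0.88 with Klra3. Klra4 with Klra8 gave 1.36 and 1.45, Klra4 with Klra1 1.42 and 1.46, Klra7 with Klra1 1.34 and 1.38 and Klra4 with the pseudogene Klra13-ps 1.66 and 1.55. Of the 15 pairs among the 6 Klra genes, 11 lay above 1 in both libraries and 2 below 1 in both. Those below were Klra3 with Klra1, at 0.72 and 0.87, and Klra9 with Klra1, at 0.86 and 0.95. Klra9 and Klra3 share end windows with other members (11.8% and 4.85%), as do Klra7 and Klra13-ps (6.27% and 4.98%), so their counts may be affected. How reads from shared windows were counted was not tested. Of the end windows of Klra9, 2.45% occur in Klra8 transcripts. Klra4 and Klra1 share no end window with another gene.

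**Figure D4:**
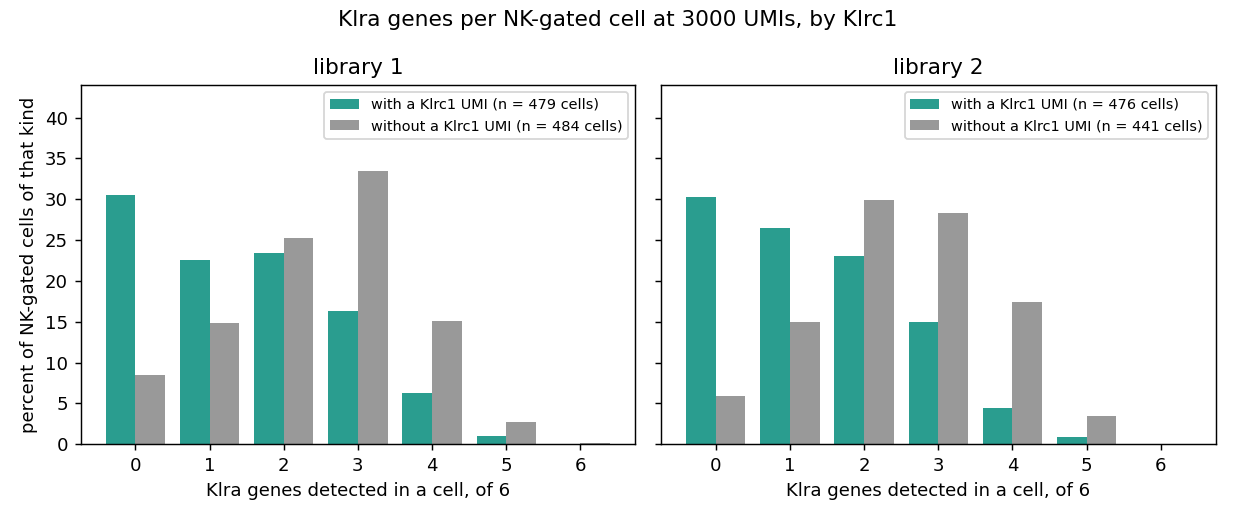
Percent of NK-gated cells (y axis) by the number of Klra genes detected of 6 (x axis), each cell thinned to 3000 UMIs, in library 1 (left) and library 2 (right), for cells with a Klrc1 UMI (green) and without (grey). Cells with none of the 6 make up 30.5% and 30.3% of those with Klrc1, against 8.47% and 5.90% of those without.

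Within the NK gates, Klrg1 and Klra5 were higher in cells with abundant granzyme D to G transcripts and in cells with the mature surface pattern, and Klra4 was lower in the granzyme-high cells. NK cells with at least 10 UMIs of the granzyme genes Gzmd to Gzmg numbered 130 and 142, and those with at most 1 numbered 775 and 748. Klrg1 had 60.7 and 43.3 CPM in the high cells, against 20.3 and 18.3 in the low cells, log2 ratios of 1.58 (1.23 to 1.93) and 1.24 (0.84 to 1.64). Klra5, which encodes Ly49E, had 35.7 and 34.8, against 16.1 and 7.45, ratios of 1.16 and 2.22. It was found in 41 and 26 NK cells in all, 10 of which held 56.1% and 76.6% of its UMIs. Klra4 had 243 and 212, against 519.8 and 557, ratios of -1.09 (-1.23 to -0.96) and -1.39 (-1.53 to -1.25). Past a ratio of 2, 2 of 22 and 2 of 21 members were higher, against 1.13% and 1.55% of all genes, and 4 and 3 were lower, against 2.61% in each library. Klra4 was the member lower past the ratio in both. The high cells were deeper, with medians of 15513.5 and 14172.5 UMIs, against 9051 and 7952.5.

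By maturation markers, Klrg1 had 82.0 and 68.8 CPM in the 53 and 46 NK cells with Itgam and no Cd27, the mature surface pattern, against 20.1 and 21.8 in the 547 and 548 cells with Cd27 and no Itgam. The log2 ratios were 2.04 (1.47 to 2.56) and 1.69 (0.88 to 2.36). Past a ratio of 2, 3 of 21 members were higher in each library, against 2.90% and 6.60% of all genes: Klrg1, Klra5 and Klra14-ps. None of 21 was lower in library 1, against 3.45%, and Klra1 alone was lower in library 2, against 6.17%. The medians over the members were 0.29 and 0.40, against 0.09 and 0.12 over all genes. Klrb1c was higher by 0.71 and 0.83 on the log2 scale. The Itgam cells were shallower, with medians of 7325 and 4845.5 UMIs, against 10607 and 10091.5. The part of depth in a missing Cd27 UMI was not tested.

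NK cells with Itga1 and no Itga2, the surface pattern of tissue-resident cells and group 1 innate lymphoid cells, numbered 362 and 278, and those with Itga2 and no Itga1 numbered 169 and 162. The Itga1 cells were deeper, with medians of 12968.5 and 12072.5 UMIs, against 7711 and 6716.5. Klra4 had 344 and 289 CPM in the Itga1 cells, against 592 and 799 in the Itga2 cells, log2 ratios of -0.79 and -1.47. Klrk1, Klri2, Klrc2, Klra7 and Klra8 were also lower in both libraries, by 0.34 to 0.76 on the log2 scale, with no interval reaching 0. Past a ratio of 2, 2 of 21 and 3 of 20 members were lower, against 1.25% and 2.28% of all genes, and 0 and 1 (Klra5) were higher, against 1.46% and 3.33%. Klra14-ps, with 54 and 29 UMIs in the Itga1 cells, was the member lower past the ratio in both. In cycling NK cells, those with at least 2 UMIs of Mki67 and Top2a, set against NK cells with none, Klri1 alone of 22 members and Klra5 alone of 21 were higher past a ratio of 2, against 4.79% and 4.84% of all genes, and none was lower, against 1.48% and 1.69%. The medians over the members were -0.52 and -0.45, against -0.02 and -0.0033 over all genes. Cycling cells were deeper, with medians of 15846 and 15934 UMIs, against 8852 and 7867.

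Between the libraries, members in NK cells passed the ratio about as rarely as all genes did. At a ratio of at least 1.5 in either direction, 1 of 24 members passed in the NK gates, against 5.40% of all genes. It was Klri1, with 70 UMIs in library 1, against 32 in library 2, a log2 ratio of 0.95 (0.34 to 1.61). The members' ratios ran from -0.26 to 0.95 with a median of 0.06, against -0.04 over all genes. Klra8 was at 0.25 (0.18 to 0.32), Klre1 at 0.15 (0.09 to 0.21), Klrb1b at -0.26 (-0.36 to -0.16) and Klra1 at -0.21 (-0.34 to -0.08). For 14 of the 24 the counting interval left out 0, 7 in each direction, but without replicates the spread between animals is unknown.

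In the CD8 T gates 3 of 22 members passed the ratio of 1.5, all higher in library 1, against 6.56% of all genes in either direction. They were Klra2 with 54 UMIs in library 1, against 14 in library 2, Klra8 with 254, against 112, and Klra5 with 140, against 62. In the phagocyte gates 6 of 16 passed, against 6.68%. Of these, Klrc2, Klra8, Klrb1c, Klra7 and Klre1 were higher in library 1 at no more than 6.06 CPM, and Klrb1b was lower, with 23.9 CPM in library 1, against 43.8 in library 2, a log2 ratio of -0.87 (-1.05 to -0.70). The 5 higher members had under 50 UMIs in library 2 and met the minimum only with the UMIs of library 1. Their count is therefore no support for a difference. Klra2, the main phagocyte member, stood at 0.01 (-0.06 to 0.08). The 7 phagocyte markers summed to 118 CPM in the NK gate of library 1, against 51.8 in that of library 2, and to 134, against 64.6, in the CD8 T gates. Among the 6 NK check markers in the phagocyte gates, Nkg7 had 50.7 CPM in library 1, against 22.0 in library 2, Gzma 35.0, against 19.6, Prf1 13.2, against 7.66, and Eomes 1.28, against 0.39. Fcgr3 had 531 in library 1, against 630 in library 2, and Cd7 15.9, against 17.4. Of these 6 markers 4 were higher in library 1, as were 5 of the 6 Klr members past the ratio. Other low members went either way: Klrc1 had 6.90 in library 1, against 4.80 in library 2, and Klri2 5.27, against 7.66. The part of stray RNA in these ratios was not tested.

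In smaller gates some ratios rested on few cells. In the gamma-delta gates 3 of 14 members passed the ratio of 1.5, all lower in library 1, against 9.84% of all genes, and Klra8 among them had 12 UMIs in library 1, against 44 in library 2, all from 5 and 6 cells. All 3 had under 50 UMIs in library 1. In the regulatory T gates 9 of 17 passed, all higher in library 1, against 8.80%. All of them but Klre1 had under 50 UMIs in library 2 and met the minimum only with the UMIs of library 1. The count is therefore no support for a difference. The furthest was Klra9, with 116 UMIs from 17 cells in library 1, against 2 UMIs from 1 cell in library 2. Klrg1 stood at 0.05 (-0.12 to 0.22) there. Some other transcripts of NK and myeloid cells were higher in the same gate of library 1: Tyrobp had 312 CPM, against 88.7 in library 2, Fcer1g 265, against 88.7, and Eomes 19.1, against 6.64. Others were level or lower: Nkg7 had 1257.1, against 1249.9, Cd7 30.7, against 36.2, and Cd247 162, against 232. Past the ratio of 1.5, 2 of 7 adaptor and signalling genes tested were higher and 0 lower. Of 8 transcription factor genes tested, 2 were higher and 1 lower. The shares of all genes were 4.36% higher and 4.45% lower. The 7 phagocyte markers summed to 148 in library 1, against 82.0 in library 2, and the 6 NK check markers to 1795, against 1735.5. Their part in the 9 ratios was not tested. In Foxp3-holding T cells with neither Cd8 nor Ncr1 UMIs, 4 members reached 50 UMIs and 3 passed the ratio, against 8.83% of all genes. All 3 had under 50 UMIs in library 2. Klrd1 and Klrk1 were higher in library 1 and Klrc1 was lower, with an interval that included 0.

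**Figure D5:**
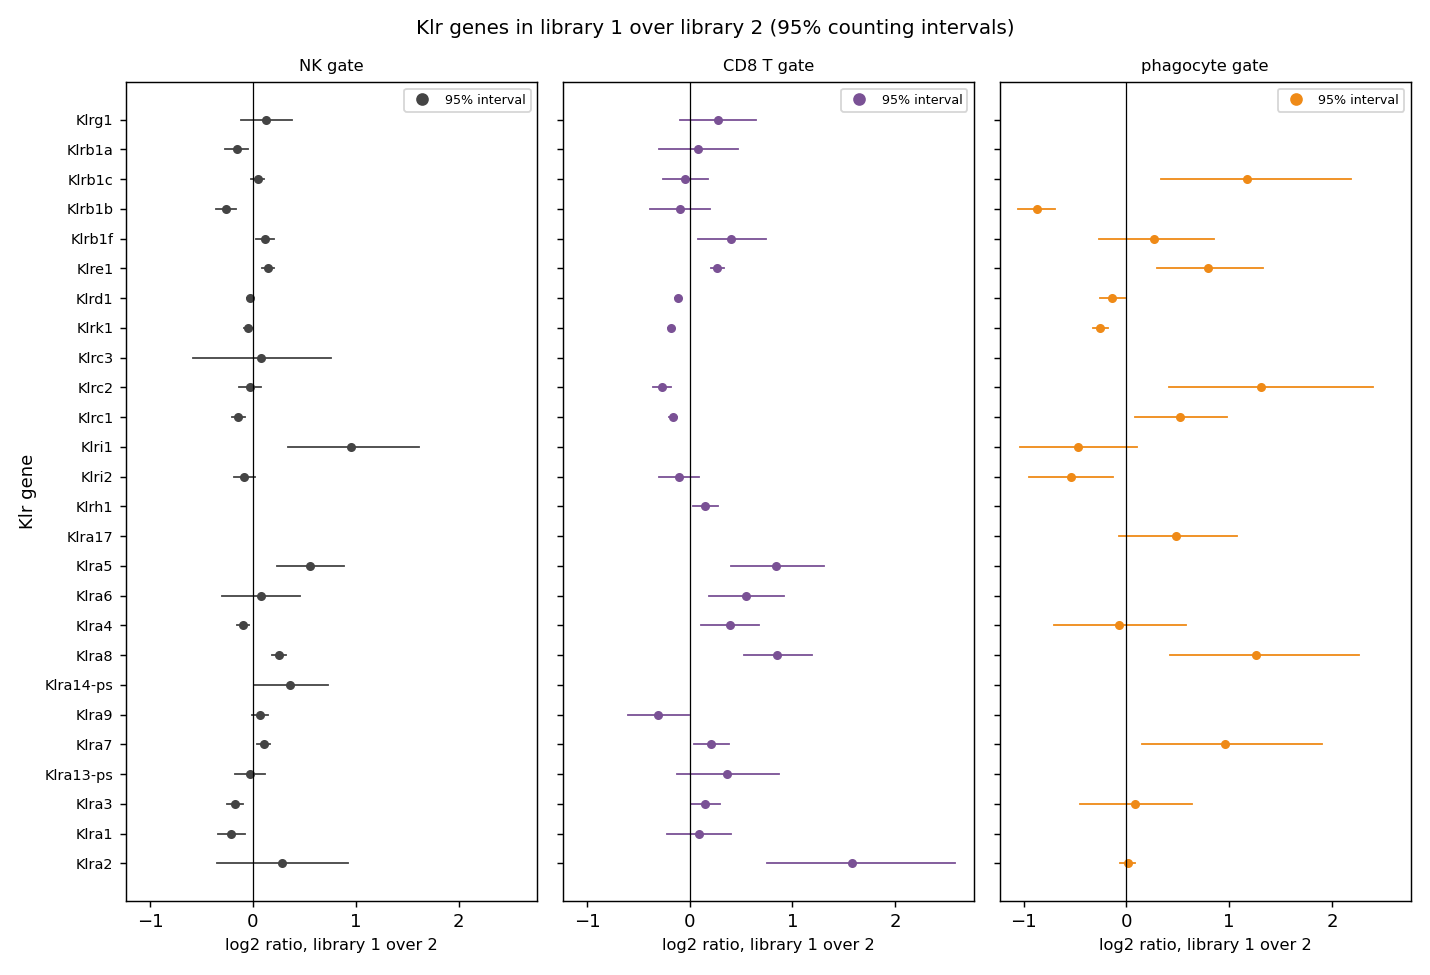
Log2 ratio of CPM in library 1 over library 2 for each Klr gene with at least 50 UMIs in the 2 libraries summed, in the NK (left), CD8 T (middle) and phagocyte gates (right). Points are ratios and bars 95% counting intervals. In NK cells the points lie between -0.26 and 0.95, and in phagocytes Klrb1b lies at -0.87.

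The genes that serve these receptors were given as lists chosen with earlier results known. Of 8 adaptor and signalling genes, none passed a ratio of 1.5 between the libraries in the NK gates, with a median log2 ratio of 0.06. The share of all genes was 5.40%, and 8 genes are too few to be told apart from it. Over CD8 T cells 3 of the 8 were higher past a ratio of 2 in each library, against 5.17% and 5.27% of all genes, and 1 in library 1 and 2 in library 2 were lower, against 6.45% and 6.69%. Tyrobp, the DAP12 adaptor of activating Ly49 receptors, had 2912 and 2607 CPM in the NK gates, against 153 and 91.2 in the CD8 T gates. Fcer1g had 2443.5 and 2401, against 286 and 193, and Sh2d1b1 73.3 and 78.6, against 3.25 and 2.90. Cd247, the zeta chain of the T cell receptor and of Fc receptors, was lower in both libraries, with 43.4 and 51.0, against 124 and 129. Hcst, the DAP10 adaptor of NKG2D, had 337 and 258, against 598.5 and 564, and was lower past the ratio in library 2. Of the 9 transcription factor genes, 2 were higher past that ratio in NK cells in each library and 1, Zfp683, was lower, beside the same shares of all genes. Eomes had 185 and 172, against 25.5 and 25.8, and Tcf7 had 82.3 and 76.9, against 29.5 and 29.7.

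Of 19 ligand genes, 8 could be tested in the NK gates. None passed the ratio between the libraries, against 5.40% of all genes, a share from which 8 genes cannot be told apart. H2-T23, which encodes the Qa-1 molecule read by CD94 and NKG2A, had 411 and 505 CPM in the phagocyte gates, 453 and 522 in the dendritic gates and 342 and 381.5 in the NK gates. Clec2d, whose product is read by Klrb1b, had 141 and 102 in the phagocyte gates and 111.5 and 84.5 in the NK gates. The NKG2D ligand genes Raet1d and Raet1e had at most 3.84 CPM in the phagocyte gates, and Ulbp1 had 15.2 and 10.6 in the CD8 T gates. Raet1a, Raet1b and Raet1c were not found in the matrix under these symbols. Cdh1, a cadherin read by Klrg1, had 17.4 and 24.8 in the dendritic gates and 9.17 and 6.86 in the NK gates.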

How the data were processed

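The deposited matrix holds raw UMI counts for each gene and barcode. It was written by Cell Ranger 6.1.2, per the file headers, on the build mm10, per the submitters' processing notes. The gene annotation and any subsampling when the 2 libraries were joined are not given in the sources used here. Library 1 held 86227008 UMIs and library 2 held 59459790. Barcodes under 500 genes or over 10% mitochondrial UMIs were left out (456 in library 1 and 366 in library 2), so that 8066 and 6113 cells remained. NK, T, B, phagocyte, neutrophil, dendritic, plasmacytoid and mast or basophil gates were set by summed UMIs of marker genes, with no clustering. CD8 T cells needed 2 UMIs of Cd8a and Cd8b1 and no Cd4, gamma-delta T cells 2 UMIs of Trdc and Trgc1 and neither Cd4 nor Cd8, and regulatory T cells 1 UMI of Foxp3, which was asked first. The marker list named the gamma-delta gene Tcrg-C1, and its symbol in the matrix is Trgc1. No doublet caller was run.

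UMIs were summed per gate and library and scaled to counts in every 1000000 UMIs (CPM). Ratios used a pseudocount of 0.5 UMIs, with exact conditional binomial intervals. Levels had exact Poisson and shares exact Clopper-Pearson intervals, all at 95%. Counts past a ratio of 1.5 (libraries) or 2 (gates) took genes for which the compared sums added up to 50 UMIs or more. A gene low on 1 side of a comparison could thus be counted on the UMIs of the other side. No p-value was computed, since each kind of sample had 1 library. The ratio and pair scripts were tested on simulated data. Promoter windows came from the RefSeq table on GRCm38.p6, which held 29 windows for 24 of the members, matched by symbol. Coordinates and transcript ends came from GENCODE M21 on GRCm38, in which all 31 members were matched by versioned gene ID. Python 3.11.15, numpy 2.4.6, scipy 1.17.1, pandas 2.3.3 and matplotlib 3.10.9 were used.

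All members with at least 50 UMIs were described, and other genes were named only from the lists of markers, adaptors, ligands and transcription factors. The members and lists were chosen with earlier results of these data known. The gates without Ncr1, the myeloid and dendritic sub-gates, the minimum of 500 NK UMIs for the Klra genes counted per cell and of 1000 for pairs, the 91-base windows and the promoters and motifs were chosen after these data were seen. Alternatives varied the NK and T gates, the cell filter, thinning, scaling, the pseudocount, the ratio and the minimum of UMIs.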

Additional observations from a re-analysis of the deposited data

Results flagged for a closer look

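Some members differed in direction between gates or between libraries, and none of these differences was tested. Klra3 had a library log2 ratio (1 over 2) of -0.17 in NK cells and 0.15 in CD8 T cells. For Klra4 it was -0.09 in NK cells and 0.39 in CD8 T cells, and 1.59 in CD8 T cells without Ncr1. For Klra8 it was 0.25 in NK cells and -1.99 in gamma-delta T cells, where the value rests on 12 UMIs in library 1, against 44 in library 2.

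Within the NK gates, Klra1 had a log2 ratio of 0.51 in library 1 and -0.9 in library 2 for cells with Itga1 over cells with Itga2. For cycling over non-cycling NK cells, Klra1 had 0.39 in library 1 and -0.89 in library 2, Klra5 had -0.73 and 1.03, and Klrg1 had -0.52 and 0.48.

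Cells outside all gates also held members. Their summed level was 3918.0 CPM in library 1 and 3898.0 in library 2 in cells that passed no gate. It was 1851.0 and 1766.0 in the cells set apart as mixed.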

How the results depend on the processing

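No paired analysis was possible because each kind of sample had 1 library and the barcodes carry no replicate number, and for the same reason no replicate could be left out. Between libraries, the 1 NK member past the ratio of 1.5 became 2 when scaled without mitochondrial and ribosomal protein genes, 2 by the median ratio of genes, 2 with the phagocyte gate from 10 UMIs, 0 at a ratio of 2 and 5 with no minimum of UMIs. The 3 CD8 T members became 5 after thinning, 5 without Ncr1 cells, 1 at a ratio of 2 and 6 with no minimum. The 6 phagocyte members became 2 after thinning, 3 at a ratio of 2, 10 from 20 UMIs, 15 with no minimum and 15 with NK cells at 0 Cd3 UMIs and T cells from 3, an alternative in which cells between these bounds are not set apart as mixed. The 11 members higher in NK than in gamma-delta T cells in library 1 became 17 without Ncr1 cells. The mean of Klra genes per NK cell in libraries 1 and 2 was 2.12 and 2.04 at 5000 UMIs, 2.31 and 2.26 unthinned and 1.43 and 1.40 when 2 UMIs were asked for, with 15.1% and 15.4% of cells without any unthinned and 29.5% and 27.4% at 2 UMIs.

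These log2 ratios changed sign, and where no construction is named the cause was not tested. Under the Cd3 alternative the library ratios in phagocytes became 0.30 for Klrd1 (main value -0.14) and 0.094 for Klri2 (-0.54), and in library 1 the ratios of Klra7 became 0.080 for Itgam+ over Cd27+ NK cells (-0.28) and 0.087 for granzyme-high over low cells (-0.13). Klrd1 in phagocytes became 0.046 after thinning and 0.047 without cells shared with the dendritic gate. In NK cells the library ratio of Klra14-ps became -0.071 after thinning (0.36) and that of Klrk1 became 0.0039 by the median ratio (-0.05). With Ncr1 from 2 UMIs, Klrb1a in Itgam+ over Cd27+ NK cells of library 2 became -0.0045 (0.48). Without Ncr1 cells, Klrc1 in NK over gamma-delta T cells of library 1 became 0.19 (-0.26). A change of sign was looked for only in ratios whose main interval left out 0. Of the other ratios, 3094 stayed within their main counting interval and 286 moved outside it. The alternatives without Ncr1 cells, with other phagocyte gates and without shared cells were chosen after seeing the data.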
